A study of Mus musculus with 9 samples.

Results

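Expression of 10 genes that mark brain endothelial cells or carry the functions of the blood-brain barrier was followed in whole mouse brain. They were taken by name from the table of raw counts, which lists 49315 genes, and all 10 passed the filter on low counts that left 18492 genes for testing. RNA was sequenced from whole brain tissue of male wild-type C57BL/6J mice, 5 of them young (3 months old by the labels) and 4 of them old (33 months old). None of the labels names a treatment, both groups carry the same WT genotype, and the libraries were made from polyA-selected RNA with ERCC spike-in. Brains were taken from individual mice, and whether blood was flushed from the vessels before collection is not given in the sources used here.

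Capillaries of the brain are lined by endothelial cells that are sealed to each other by tight junctions and move nutrients, hormones and drugs through dedicated transporters. These properties are kept up by Wnt signals from surrounding cells, while growth factors of the VEGF family act on receptors of the endothelial surface. Under inflammation or injury, endothelial cells also show adhesion molecules for white blood cells and release clotting factors.

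The 10 genes fall into 4 roles. Cldn5 (claudin-5, the main tight junction protein of the barrier) and Pecam1 (CD31, an adhesion protein at contacts between endothelial cells) belong to the junctions. The transporters are Slc2a1 (GLUT1, the barrier's glucose transporter), Slco1c1 (thyroid hormone uptake), Slco1a4 (an organic anion transporter), Mfsd2a (uptake of lysophosphatidylcholine carrying omega-3 fatty acids) and Abcb1a (P-glycoprotein, which pumps drugs out). Flt1 is a VEGF receptor, Vcam1 binds leukocyte integrins, and Vwf encodes the von Willebrand factor that captures platelets.

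Total counts per library ran from 14229259 to 21150439, and each of the 10 genes had between 228 and 4406 counts in every mouse. Defining transcripts of brain tissue were present in all mice, with the 6 neuronal markers summing to between 4250.71 and 4593.37 counts per 1000000 of the library (CPM). The 18 pan-endothelial markers, none of which is among the 10 genes, summed to between 309.345 and 395.705 CPM. Young replicate 4 stood apart in its microglial markers, with a mean of 4.87 log2 CPM against 4.45 to 4.56 in the other young mice. Calls of the 10 genes and of the related lists that change without this mouse are given with and without it.

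Of the 10 genes, 5 were higher in old brain and 0 were lower by edgeR's quasi-likelihood test at an adjusted p under 0.05. Over all tested genes, 6.09% were called higher and 4.89% lower. Vwf was 3.05-fold higher, Slc2a1 1.60-fold, Pecam1 1.30-fold, Flt1 1.19-fold and Abcb1a 1.17-fold, while Cldn5, Slco1c1, Slco1a4, Mfsd2a and Vcam1 did not pass the test. The 10 genes had a median log2 fold change of 0.18, beside a median of -9.2e-05 over all tested genes. In 4 of them (Slc2a1, Pecam1, Vwf and Flt1) every old mouse was above every young mouse, an arrangement found in 6.50% of all tested genes, and in 0 every old mouse was below, against 6.08%. Slc2a1 and Vwf also passed an absolute log2 fold change of 0.58, as 2.50% of all tested genes did in either direction. In whole tissue, more endothelial cells and more RNA per endothelial cell cannot be told apart.

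**Figure D1:**
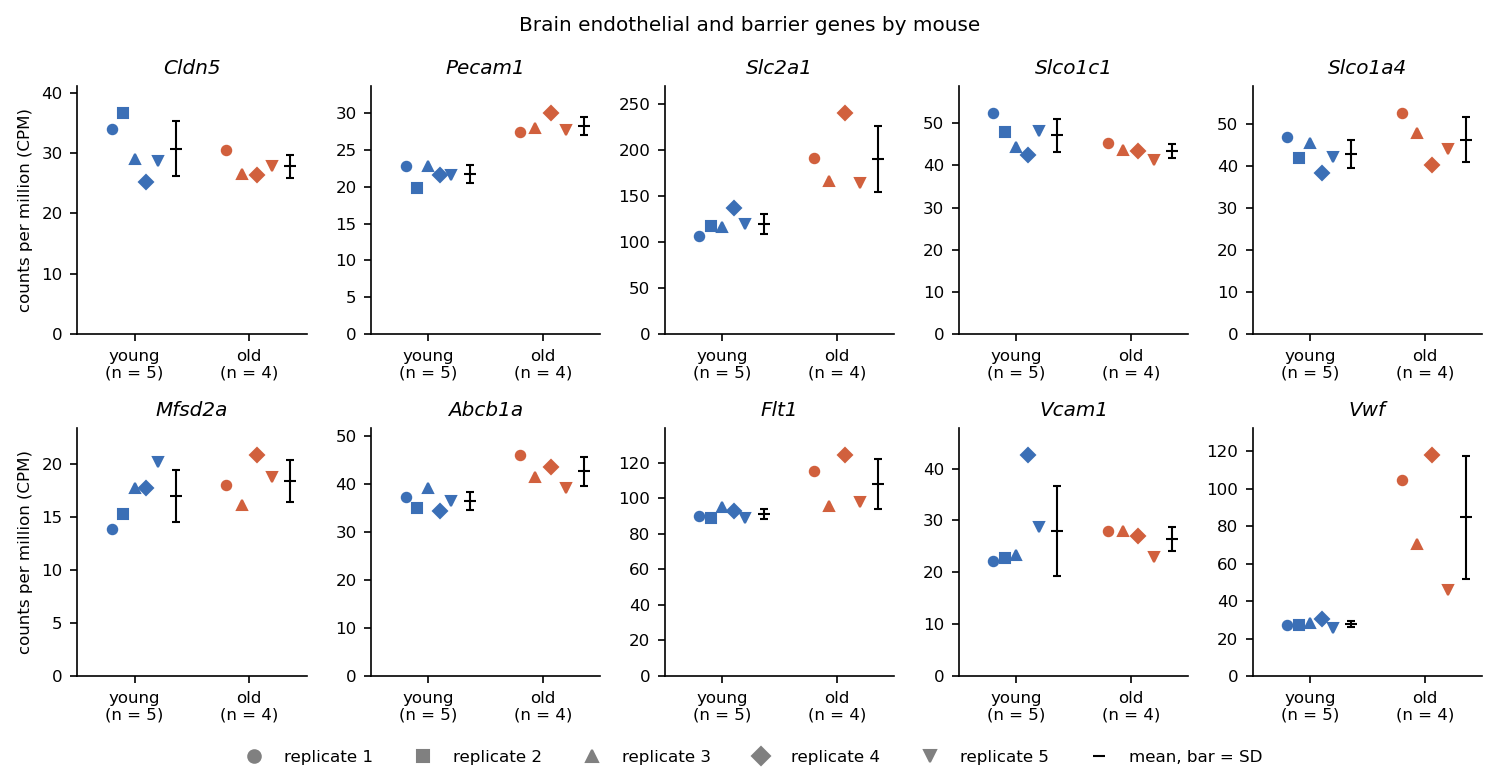
CPM of each of the 10 genes (vertical axes, from 0) in 5 young (blue) and 4 old (orange) mice, 1 point a mouse with the replicate number as its shape, and the mean with its SD in black. Old points of Vwf, Slc2a1, Pecam1 and Flt1 lie above all young points, and young replicate 4 is the single high point of Vcam1.

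Among the junction genes, Pecam1 was higher and Cldn5 was not called. Pecam1 (ENSMUSG00000020717, GRCm38 chromosome 11, 106654217 to 106750628, minus strand) had 22.9, 19.8, 22.9, 21.6 and 21.6 CPM in young replicates 1 to 5. In old replicates 1, 3, 4 and 5 it had 27.4, 28.0, 30.1 and 27.8 CPM. Both groups were tight and did not overlap, with a young mean of 21.8 ± 1.26 CPM (SD, n = 5) and an old mean of 28.3 ± 1.21 CPM (SD, n = 4). Its log2 fold change was 0.38 (SE 0.059, 95% interval 0.26 to 0.50, adjusted p = 0.000541 by edgeR), and it stayed called with any single mouse left out.

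Cldn5 (ENSMUSG00000041378, chromosome 16, 18776847 to 18778262, plus strand) had 34.0, 36.7, 28.9, 25.2 and 28.6 CPM in young replicates 1 to 5. In old replicates 1, 3, 4 and 5 it had 30.4, 26.5, 26.3 and 27.8 CPM. Old values lay within the young range, which was wide because replicates 1 and 2 were high. The log2 fold change of -0.14 (SE 0.098, interval -0.36 to 0.070) did not pass the test (adjusted p = 0.402, edgeR).

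Of the 5 transporters, Slc2a1 and Abcb1a were higher in old brain. Slc2a1 (ENSMUSG00000028645, chromosome 4, 119108711 to 119137983, plus strand) had 107.0, 117.2, 116.9, 137.0 and 119.5 CPM in young replicates 1 to 5. In old replicates 1, 3, 4 and 5 it had 191.5, 166.2, 241.1 and 164.4 CPM. Every old mouse was above the highest young mouse, and old replicate 4 was the highest of all. The log2 fold change was 0.68 (SE 0.13, interval 0.38 to 0.97, adjusted p = 0.0141, edgeR), and 0.54 without old replicate 4 (adjusted p = 0.00127). Transcripts of Slc2a1 are also made outside the endothelium, in astrocytes, and 0 of 6 astrocyte markers were called in either direction (median log2 fold change 0.032). What part other cells had in the Slc2a1 difference was not tested.

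Abcb1a (ENSMUSG00000040584, chromosome 5, 8660077 to 8748575, plus strand) had 37.4, 35.0, 39.3, 34.4 and 36.5 CPM in young replicates 1 to 5. In old replicates 1, 3, 4 and 5 it had 46.2, 41.6, 43.7 and 39.3 CPM. The groups touched, since old replicate 5 and young replicate 3 were level at 39.3 CPM. The log2 fold change of 0.23 (SE 0.056, adjusted p = 0.0137, edgeR) is small, and the gene shares 10.1% of its exon bases with Gm42686 on the opposite strand. It was called in 9 of 9 fits with a mouse left out. Its close copy Abcb1b was also higher, from a young mean of 3.55 ± 0.44 CPM to an old mean of 4.93 ± 0.64 CPM (log2 fold change 0.47, adjusted p = 0.0354, edgeR), and counting of unique reads may leave reads of either gene out.

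The remaining 3 transporters did not pass the test. Slco1c1 (ENSMUSG00000030235, chromosome 6) had 52.5, 48.0, 44.3, 42.5 and 48.2 CPM across the young mice against 45.3, 43.7, 43.3 and 41.3 CPM across the old, and its log2 fold change was -0.12 (interval -0.24 to 0.0045, adjusted p = 0.215, edgeR). Slco1a4 (ENSMUSG00000030237, the same chromosome) had 46.8, 41.8, 45.4, 38.2 and 42.2 CPM across the young mice against 52.7, 47.9, 40.3 and 44.1 CPM across the old, and its log2 fold change was 0.11 (interval -0.049 to 0.27, adjusted p = 0.386, edgeR). Mfsd2a (ENSMUSG00000028655, chromosome 4) had 13.8, 15.2, 17.7, 17.7 and 20.1 CPM across the young mice against 18.0, 16.1, 20.8 and 18.7 CPM across the old, and its log2 fold change was 0.13 (interval -0.086 to 0.34, adjusted p = 0.464, edgeR). In all 3 the old and young mice overlapped, and the intervals leave room for a difference as large as that of Abcb1a, upward for Slco1a4 and Mfsd2a and downward for Slco1c1. On the scale of the deposited TPM values (reads per length, scaled to the library), Slco1a4 and Mfsd2a had log2 fold changes of the opposite sign (-0.056 and -0.036), on which scale the median of all genes also lay lower, at -0.14.

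Flt1 (ENSMUSG00000029648, chromosome 5, 147561604 to 147726011, minus strand) had 90.3, 88.8, 94.9, 92.8 and 89.0 CPM in young replicates 1 to 5, and the young mice hardly differed. In old replicates 1, 3, 4 and 5 it had 115.3, 95.4, 124.6 and 97.7 CPM. Replicates 1 and 4 were clearly above the young range, whereas replicate 3 exceeded young replicate 3 by less than 1 CPM. The log2 fold change was 0.25 (SE 0.069, interval 0.10 to 0.40, adjusted p = 0.0362, edgeR). The call was lost when any 1 of the young mice, old replicate 1 or old replicate 4 was left out, at adjusted p of 0.0562 to 0.10 in 7 of 9 such fits, with log2 fold changes of 0.18 to 0.26 in them.

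Sequence before the start of transcription is shown for Slc2a1 and Flt1, the called genes whose RefSeq promoter window (GRCm38.p6, 250 bases before to 50 after the start) held a searched motif. Windows were found for 7 of the 10 genes, those of Cldn5, Slco1c1, Slco1a4, Mfsd2a, Abcb1a, Slc2a1 and Flt1, and both strands were searched. The Abcb1a window (chromosome 5, 8566841 to 8567140) lies far before the gene span given above, which begins at 8660077. Sequence next to that start was not searched. Bases 160 to 31 before the start are printed 5′ to 3′ on the gene's strand, with matches in capitals. Slc2a1 is on the plus strand at chr4:119108585-119108714 and Flt1 on the minus strand at chr5:147726042-147726171.
Slc2a1: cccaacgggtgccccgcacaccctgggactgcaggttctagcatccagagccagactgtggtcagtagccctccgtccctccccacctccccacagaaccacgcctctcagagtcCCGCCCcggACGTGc
Flt1: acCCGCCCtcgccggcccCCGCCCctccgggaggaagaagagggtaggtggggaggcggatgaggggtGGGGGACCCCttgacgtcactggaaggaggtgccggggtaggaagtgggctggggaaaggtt

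In Flt1 the capitals mark 2 copies of the GC box (GGGCGG, here on the opposite strand as CCGCCC) and a match to the NF-kappaB consensus, GGGGGACCCC, that begins 92 bases before the start. In Slc2a1 they mark a GC box and the core ACGTG of the hypoxia response element 36 bases before the start. The NF-kappaB consensus was in 1 of the 7 windows and in 4.51% of all 32851 promoter windows, ACGTG in 3 of 7 and 19.6%, and the GC box in 3 of 7 and 35.7%. The consensus of the interferon-stimulated response element (3.44% of all windows), the ETS motif CCGGAAG (8.86%) and the TCF/LEF motif ATCAAAG (3.73%) were in 0 of the 7. The GC box and ACGTG were added after the other 4 motifs had been searched, and a match describes letters in a window and not a bound site.

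Vwf (ENSMUSG00000001930, chromosome 6, 125546774 to 125686679, plus strand) had the largest difference of the 10 genes. It had 27.4, 27.3, 28.4, 30.5 and 25.6 CPM in young replicates 1 to 5, and 104.5, 70.7, 118.2 and 45.7 CPM in old replicates 1, 3, 4 and 5. Young mice varied little (coefficient of variation 6.39%) and old mice varied widely (38.7%), with old replicate 5 at 1.64 times and old replicate 4 at 4.25 times the young mean. The log2 fold change was 1.61 (SE 0.28, interval 0.96 to 2.26, adjusted p = 0.0116, edgeR), and it ranged from 1.41 to 1.82 with each mouse left out in turn.

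Vcam1 (ENSMUSG00000027962, chromosome 3, 116109949 to 116129688, minus strand) had 22.2, 22.7, 23.4, 42.7 and 28.7 CPM in young replicates 1 to 5. In old replicates 1, 3, 4 and 5 it had 27.9, 27.9, 27.0 and 22.9 CPM. Young replicate 4, the mouse with high microglial markers, was above every other mouse. The log2 fold change was -0.089 (SE 0.22, interval -0.60 to 0.42, adjusted p = 0.846, edgeR), and without young replicate 4 it had the opposite sign, 0.13 (adjusted p = 0.404). The young mean was 27.9 ± 8.67 CPM (SD, n = 5) with that mouse and 24.2 ± 3.03 CPM (SD, n = 4) without it.

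**Figure D2:**
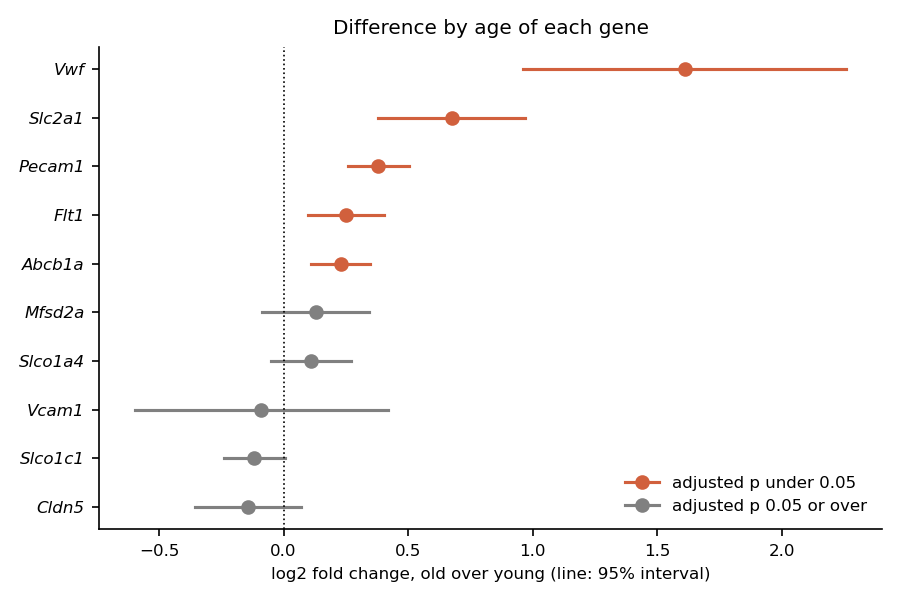
Log2 fold change of old over young (horizontal axis) for each of the 10 genes, with its 95% interval, in orange where the adjusted p was under 0.05 and grey elsewhere. Vwf at 1.61 and Slc2a1 at 0.68 lie farthest from 0, and the widest interval around 0 is that of Vcam1.

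Levels of different genes can be ranked only per length of transcript, so CPM were divided by the exon length in kilobases. In young brain Slc2a1 stood first at 34.1 ± 3.11 CPM per kb, followed by Cldn5 at 21.7 ± 3.24 and Slco1c1 at 9.08 ± 0.75 CPM per kb (SD, n = 5). Mfsd2a, Flt1, Slco1a4 and Abcb1a came next at means of 6.67 to 7.52 CPM per kb, each overlapping its neighbour in that order, and Mfsd2a also overlapped Slco1c1. Pecam1 (3.50) and Vcam1 (3.15 CPM per kb) overlapped each other, and Vwf was last at 1.73 ± 0.11 CPM per kb, below every Vcam1 value. In old brain Slc2a1 at 54.4 and Cldn5 at 19.6 CPM per kb again led without overlap. Vwf had moved to the eighth place at 5.28 ± 2.04 CPM per kb (SD, n = 4), where it overlapped its neighbours Slco1a4 and Pecam1, and Vcam1 was last at 2.98 CPM per kb.

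Red blood cell transcripts moved with several of these genes. The 5 red-cell genes, 4 of them hemoglobin genes and the other Alas2 (the first enzyme of heme synthesis in red cells), summed to between 86.1 and 115.9 CPM in young mice and to 262.1, 127.9, 408.9 and 169.6 CPM in old replicates 1, 3, 4 and 5. Of the 5, 3 were called higher by edgeR, with log2 fold changes of 1.11 to 1.35 over the list. The old mice with most red-cell RNA, replicates 4 and 1, were also the highest for Vwf, Slc2a1, Flt1 and Abcb1a, and the lower pair, replicates 3 and 5, were the lower pair for all 4 genes. Pecam1 was likewise highest in replicate 4, at 30.1 CPM, and was 27.4 CPM in replicate 1, 28.0 CPM in replicate 3 and 27.8 CPM in replicate 5.

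With the mean log2 CPM of the red-cell genes as a covariate, a fit chosen after seeing the data, 0 of the 10 genes were called by edgeR. In that fit 251 of the 18492 tested genes (1.36%) were called higher and 183 (0.99%) lower, so most calls were lost elsewhere too. Log2 fold changes were then 0.91 for Vwf (adjusted p = 0.230), 0.33 for Pecam1 (adjusted p = 0.0789), 0.29 for Slc2a1 (adjusted p = 0.103), 0.17 for Abcb1a (adjusted p = 0.389) and 0.0054 for Flt1 (adjusted p = 0.983). Because all old mice had more red-cell RNA than all young mice, age and red-cell RNA cannot be told apart in full by this fit.

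Platelets are another known source of Vwf transcripts. Summed over 8 platelet genes, young mice had 9.14 to 10.6 CPM, and old replicates 1, 3 and 5 had 10.7, 10.4 and 9.27 CPM. Old replicate 4 was the exception at 27.6 CPM, with Ppbp, a platelet chemokine, at 6.95 CPM against at most 0.80 CPM in every other mouse. Vwf was 104.5 CPM in old replicate 1 and 70.7 CPM in old replicate 3, whose platelet sums of 10.7 and 10.4 CPM were close to the highest young sum. The largest parts of these sums were Itgb3 (4.78 and 5.08 CPM) and Itga2b (2.60 and 3.17 CPM). In young mice Itgb3 had 3.85 to 4.70 CPM and Itga2b 2.93 to 3.37 CPM, so the sum hardly registers small differences in the other platelet genes. Ppbp and Pf4, both in the sum, were 0.80 and 0.90 CPM in old replicate 1, above all young mice. They were 0.21 and 0.35 CPM in old replicate 3 and 0.47 and 0.70 CPM in old replicate 5. Young mice had at most 0.29 CPM of Ppbp and 0.57 CPM of Pf4, from few counts. What part platelets had in the Vwf difference was not tested. Without old replicate 4 the log2 fold change of Vwf was 1.41 (adjusted p = 0.0238, edgeR).

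**Figure D3:**
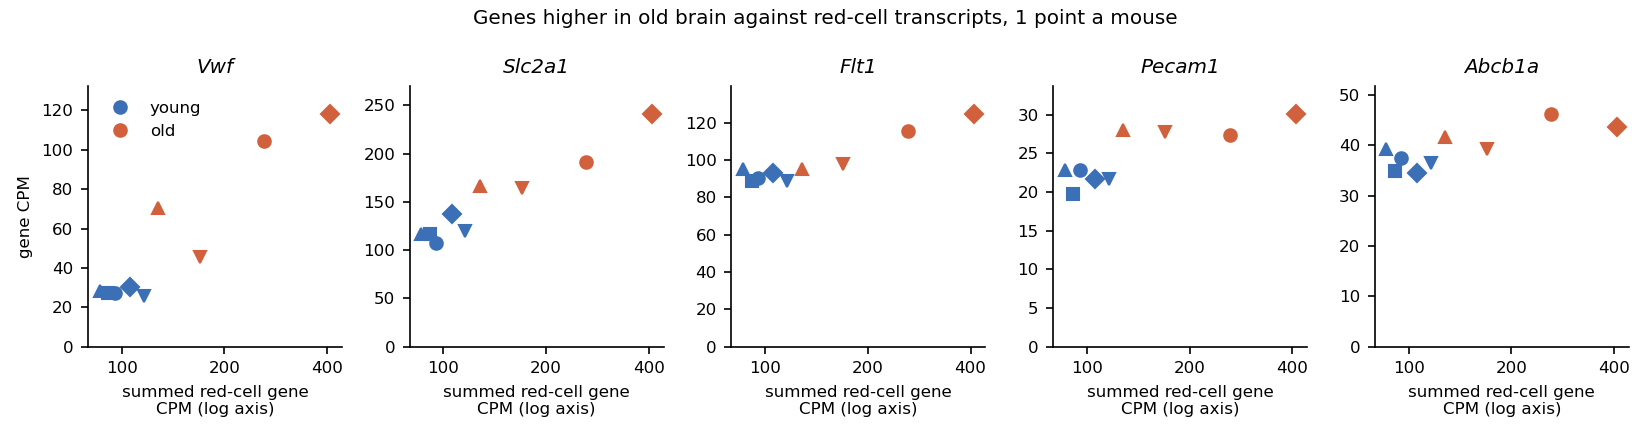
CPM of the 5 genes called higher in old brain (vertical axes, from 0) against the summed CPM of 5 red-cell genes (horizontal log axis), 1 point a mouse, young in blue and old in orange, with shapes by replicate number. For Vwf, Slc2a1, Flt1 and Abcb1a, old replicates 4 and 1 lie to the right and highest, and Pecam1 lies between 27.4 and 30.1 CPM in old mice with replicate 4 highest.

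Changes of the 10 genes were then set against a common endothelial level, the mean log2 CPM of 18 pan-endothelial markers. That mean was 3.75 ± 0.028 (SD, n = 5) among the young and 3.96 ± 0.048 (SD, n = 4) among the old mice, a difference of 0.21 without overlap (two-sided exact permutation test, p = 0.00794, the smallest that 126 splits of the mice can give). Of the 18 markers, 6 were called higher and 0 lower by edgeR, among them Ly6c1 (a surface protein of endothelial and immune cells, log2 fold change 0.94), Sox18 (an endothelial transcription factor, 0.60) and Podxl (a sialomucin of the luminal surface, 0.55). The markers did not move as 1: 4 had negative log2 fold changes, Kdr (-0.30), Tie1 (-0.20), Emcn (-0.18) and Tek (-0.0089), none of them called. Relative to the marker mean, Vwf was higher by 1.30 (log2), Slc2a1 by 0.45 and Pecam1 by 0.17. Slco1c1 was lower by 0.33, and in these 4 genes the two-sided exact permutation p adjusted over the 10 genes was 0.0397.

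Cldn5 was lower relative to the markers by 0.34, but its adjusted p of 0.0635 (exact permutation test) missed the threshold. Flt1 and Abcb1a, though higher in old brain by themselves, differed from the markers by only 0.028 and 0.012 (adjusted exact permutation p = 0.811 and 0.825). Slco1a4, Mfsd2a and Vcam1 had relative differences of -0.11, -0.085 and -0.25, which did not pass either. With 1 mouse left out the smallest exact p is 0.0179 or 0.0286, and none of the 10 passed in those fits. The differences kept their sign for Vwf (1.13 to 1.55), Slc2a1 (0.35 to 0.51), Pecam1 (0.14 to 0.19) and Slco1c1 (-0.36 to -0.28). They also kept it for genes that had not passed: Cldn5 (-0.41 to -0.27), Slco1a4 (-0.17 to -0.022), Mfsd2a (-0.15 to -0.016) and Vcam1 (-0.32 to -0.081). Flt1 (-0.023 to 0.087) and Abcb1a (-0.029 to 0.032) did not keep theirs. Set against 14 markers of mural cells (pericytes and vessel muscle) instead, Vwf, Slc2a1, Pecam1 and Slco1c1 differed by 1.39, 0.54, 0.26 and -0.24, with an adjusted exact permutation p of 0.0794 each.

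**Figure D4:**
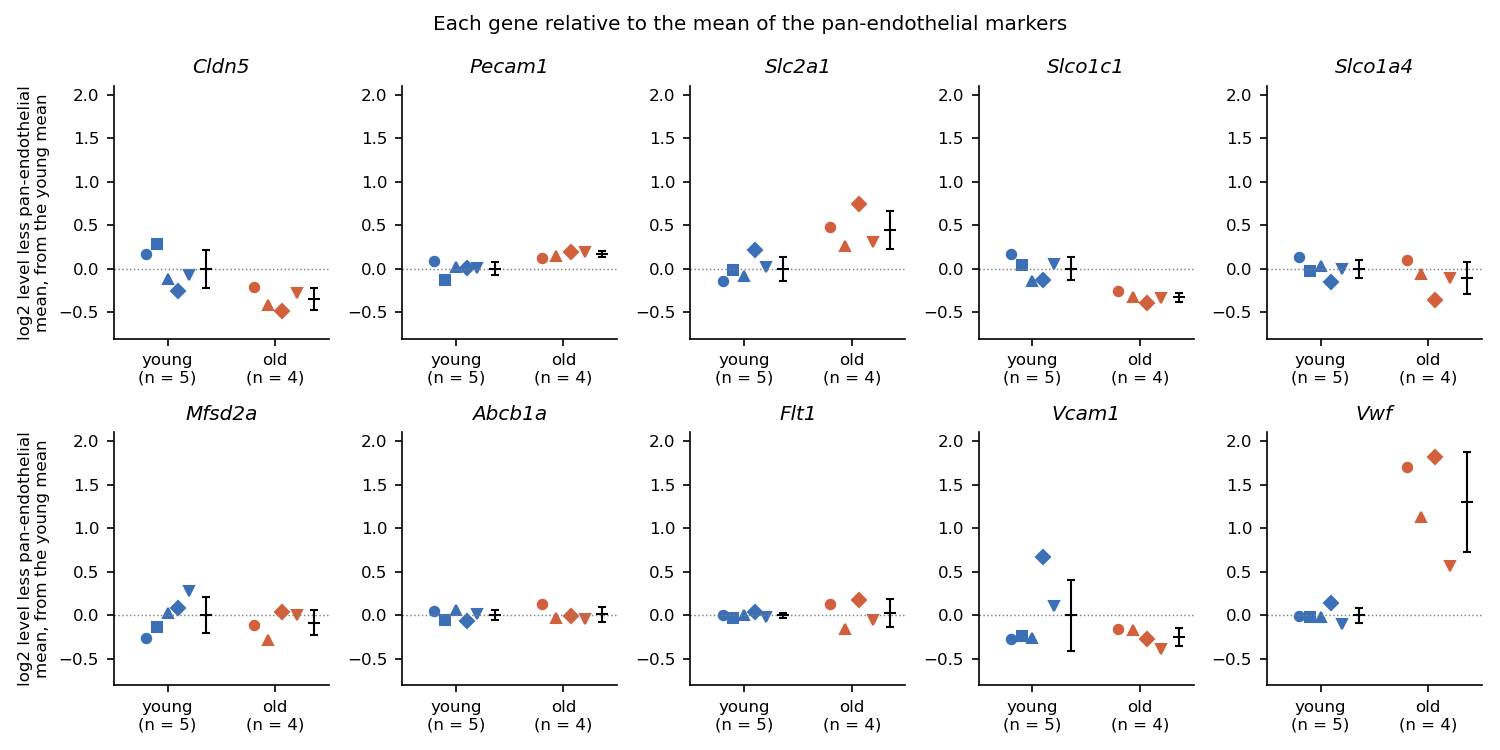
Log2 CPM of each gene less the mean of 18 pan-endothelial markers in the same mouse, plotted from the young mean at 0, 1 point a mouse with shapes by replicate number and the mean with its SD in black. Vwf, Slc2a1 and Pecam1 lie above 0 in old mice and Slco1c1 below, while Abcb1a and Flt1 scatter around 0. Old points of Cldn5 and Vcam1 also lie below 0 but overlap young points.

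Genes with related functions were described through 7 lists that together name 92 genes, of which 89 were tested and Aplnr, Sele and Selp had too few counts. Of these, 20 were called higher and 6 lower, 22.5% and 6.74% of those tested, with a median log2 fold change of 0.10. Without young replicate 3 or old replicate 1 the number lower was 3, beside 3.92% and 3.62% of all genes. With the red-cell covariate 4 were higher and 0 lower, beside 1.36% and 0.99% of all genes. Of 15 genes of junctions and vesicles, 3 were higher and 0 lower: Plvap (a component of fenestrae and caveolae, log2 fold change 0.38), Cavin1 (a caveolar coat protein, 0.36) and Cdh5 (VE-cadherin, 0.26). Of 16 further barrier transporters and receptors, 4 were higher, among them Abcb1b, Slc6a6 (taurine uptake, 0.34) and Abcc4 (an efflux pump, 0.27), and Slc7a1 (cationic amino acids, -0.16) was lower.

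Among 15 tested genes of VEGF and angiopoietin signalling, Flt4 (the receptor of VEGF-C) was higher with a log2 fold change of 0.53, while Apln (the ligand apelin, -0.51) and Nrp2 (a co-receptor, -0.18) were lower. The list's median was -0.055. Of 16 genes of barrier Wnt signalling and endothelial transcription factors, 4 were higher and 1 lower. Sox17 (log2 fold change 0.69, with 16.9% of its exon bases shared with a gene on the opposite strand), Sox18 (0.60) and Reck (a Wnt7 co-receptor, 0.27) were the 3 highest, and Tspan12 (a norrin co-receptor, -0.25) was lower.

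In adhesion and coagulation, the list closest to Vwf and Vcam1, 3 of 14 tested genes were higher and 1 lower. Lrg1, a secreted glycoprotein of venous endothelium, averaged 1.52 ± 0.33 CPM (SD, n = 5) in the young and 6.47 ± 3.48 CPM (SD, n = 4) in the old brains, and its log2 fold change was 2.07 (adjusted p = 0.0107, edgeR). Nos3 (endothelial nitric oxide synthase, log2 fold change 0.46, with 25.2% of its exon bases shared with an opposite-strand gene) was also higher, and F8 (coagulation factor VIII, carried in plasma by the Vwf protein) was lower at -0.59. Of 10 arterial markers Bmx (1.03), Mgp (0.55) and Sema3g (0.47) were higher and Gkn3 (-1.64) was lower, and the median was -0.13. Of 9 tested venous markers Lrg1, Il1r1 (the receptor of interleukin-1, 0.67) and Ephb4 (a venous ephrin receptor, 0.45) were higher and 0 were lower, with a median of 0.45. Young replicate 4 had the highest young mean of this list (3.19 log2 CPM against 2.23 to 2.56), and without that mouse 5 of the 9 were higher, with a median of 0.62. In the same fit 5 of the barrier transporters were higher and 3 lower, and F8, Tspan12 and Adgra2 (a Wnt7 co-receptor) were no longer called. Over all genes tested without that mouse, 6.52% were higher and 4.7% lower. Angpt1 and Cd34 were called higher in that fit, and Kdr, Wnt7b and Mcam were called lower.

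**Figure D5:**
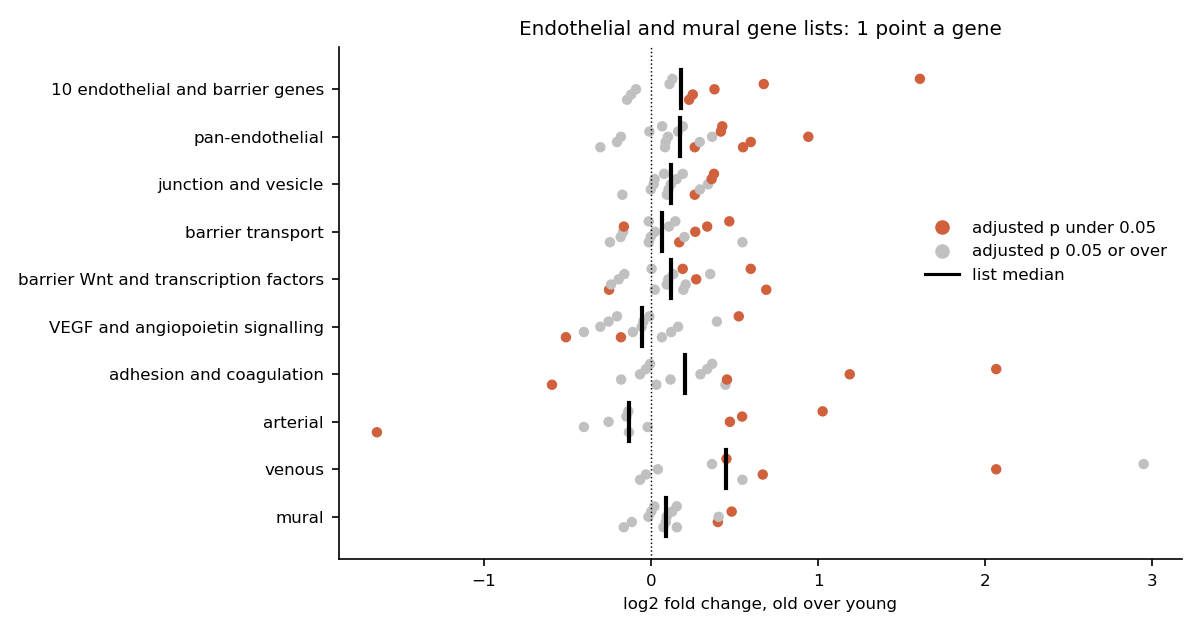
Log2 fold change of old over young (horizontal axis) for each tested gene of the 10 endothelial and barrier genes, 8 endothelial lists and the mural list, 1 point a gene, orange where the adjusted p was under 0.05, with black lines at the list medians. Medians run from -0.13 (arterial) to 0.45 (venous), beside 0.18 for the 10 genes.

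Other cells of the vessel wall were followed with the same test. Of 14 mural markers 2 were higher, Kcnj8 (log2 fold change 0.48) and Abcc9 (0.40), the subunits of a potassium channel of pericytes, and 0 were lower. Of 5 markers of perivascular macrophages F13a1 (1.13) and Cd163 (0.69) were higher, and the list summed to between 8.41 and 9.81 CPM in the young brains and between 11.8 and 19.2 CPM in the old. Pf4 is in this list and in the platelet list. The highest sum was that of old replicate 4, the mouse with the high platelet sum, where Pf4 had 2.57 CPM. Of 7 fibroblast markers Col3a1 (-0.89) was lower, and of 7 microglial markers Tmem119 (0.53) was higher, or 4 of 7 without young replicate 4. Their part in the differences of the 10 genes was not tested.

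Differences between mice of the same age were described by correlation after centring each age on its mean, over 9 mice that share library depth as a source of variation. Against the pan-endothelial mean, r was highest for Vwf (0.72), Flt1 (0.67) and Abcb1a (0.63), with Spearman's rho of 0.57, 0.50 and 0.67. None passed, since the smallest permutation p for r adjusted over the 10 genes was 0.325 (exact over 2880 arrangements within age). Without young replicate 3 and old replicate 4, the mice farthest from the median, these r were 0.76, 0.21 and 0.55. Among the 10 genes themselves, Vwf and Flt1 (0.86), Slc2a1 and Flt1 (0.83) and Slc2a1 and Vwf (0.77) varied most alike, and Cldn5 varied with Slco1c1 (0.71) and opposite to Vcam1 (-0.74). Without young replicate 4 the r were 0.86, 0.89 and 0.80 for the first 3 pairs and 0.51 and -0.46 for the Cldn5 pairs. Vwf, Slc2a1 and Flt1 varied more among old than among young mice, with old replicates 1 and 4 the highest for each. Leaving out a young mouse therefore hardly probes the first 3 pairs, and their r without old replicate 1 or 4 was not tested. The 5 genes of the whole table most like Cldn5 were Cirbp, Smim20, Sf3b2, Srebf1 and Cpsf4 (r of 0.96 to 0.98). Of the 100 most alike, 1 was in an endothelial list, and this number ran from 0 to 3 over the 10 genes. Those lists hold 89 tested related genes, the 18 pan-endothelial markers (some in both) and the 10 genes, of 18492 tested. Those most like Vcam1 were Aif1 (0.98), Coq4, Atp6v1b1, Il21r and Bcl3. Without young replicate 4 their r with Vcam1 was 0.84 to 0.92, and such values are the top of 18492 genes over few mice.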

How the data were processed

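The authors used Trimmomatic for trimming, STAR for alignment against GRCm38 from Ensembl, and featureCounts for reads that map uniquely to exons. Of the 3 deposited tables, the first holds these raw counts. The second holds a signal, the counts after the authors scaled every library by its size factor, and the third holds TPM as deposited by the authors. The submitters' processing notes also name DESeq2 and mm10. The authors' methods give strand-aware counting for strand-specific libraries, and whether these libraries were strand-specific is not given in the sources used here. A column of per-sample values (1 in every table) matched no sample analysed here and was not used.

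Genes were filtered with filterByExpr of edgeR 4.0.16 in R 4.3.3 (minimum count 10, minimum total count 15), normalized by TMM and tested by age without covariates with the quasi-likelihood test. Robust estimation was chosen after a first fit without it, which remained as an alternative. P-values were adjusted by Benjamini-Hochberg over 18492 genes, with a threshold of 0.05, and "called" means past it. CPM use TMM library sizes, and log2 CPM a prior count of 2. On simulated counts for these 18492 genes by age, the test recovered 84% of 200 genes changed by 1 on the log2 scale, with 5.08% of its calls false, and made 0 calls with none changed. Smaller changes, such as those of all 10 genes but Vwf, were not simulated. Each simulated gene had the same dispersion at both ages, unlike Vwf. Values relative to marker means were tested over mice by exact permutation with scipy 1.17.1, two-sided. Alternatives used DESeq2 1.42.0, limma 3.58.1 on log2(TPM + 1), log2(TPM + 0.1) and log2(normalized counts + 1), other filters and scalings, and each mouse left out. Replicates were separate mice, and none were near-duplicates (chi-square per degree of freedom at least 4.09 between mice of an age).

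The genes, lists and tests were chosen with earlier results of these data known. All 10 genes were described, and of each related list the called genes, at most the 3 highest and 3 lowest, except 1 gene that is counted but not reported here. The platelet list and the red-cell covariate were chosen after values were seen. Gene positions and exon lengths are from GENCODE M21 (GRCm38), promoter windows from RefSeq.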

Additional observations from a re-analysis of the deposited data

Results flagged for a closer look

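A single mouse stood far from the others of its age, by Dixon's ratio, in 4 of 32 combinations of measure and age, where chance gives about 1.6. In young mice, the pan-endothelial mean was 3.80 log2 CPM in replicate 3 against 3.73 to 3.74 in the other 4. The microglial mean was 4.87 log2 CPM in young replicate 4 against 4.45 to 4.56, the mouse that was also highest for Vcam1. The platelet genes summed to 10.6 CPM in young replicate 1 against 9.14 to 9.51 CPM, and to 27.6 CPM in old replicate 4 against 9.27 to 10.7 CPM. None of the 10 endothelial and barrier genes had such a mouse in either age.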

How the results depend on the processing

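Over the alternatives run, 184 of 190 fold changes of the 10 genes kept their sign, leaving out 2 settings that repeat another fit's fold changes. The 6 that did not belonged to genes never called: Slco1a4 and Mfsd2a on both TPM scales, Mfsd2a with the red-cell covariate, and Vcam1 without young replicate 4. With limma on log2(TPM + 1), 1 of the 10 genes was called higher (Vwf), 4 related genes were higher and 2 lower, and the median of the 10 genes was 0.0094. With limma on log2(TPM + 0.1) these were 1, 4, 2 and 0.011. Of all tested genes, 1.66% and 1.64% were then called higher and 1.55% and 1.60% lower. On these scales the median of all genes was -0.14 and -0.16, and relative to it the median of the 10 genes was 0.15 and 0.17. At an adjusted p under 0.01, 1 of the 10 genes (Pecam1) and 11 related genes were higher and 2 related genes lower, beside 2.93% and 1.80% of all genes. With the added fold threshold of 0.58 these were 2, 6 and 2, beside 2.13% and 0.373%. Without a filter on low counts 23 related genes were higher and 12 lower, beside 4.3% and 3.7% of the 35028 genes then tested. With the red-cell covariate 0 of the 10 and 4 related genes were higher and 0 lower, beside 1.36% and 0.99% of all genes, and the median of the 10 was 0.087. Against the mural markers 0 of the 10 genes passed as higher and 0 as lower. When single mice were left out, 4 to 5 of the 10 genes were called higher and 0 lower, and their median was 0.16 to 0.22. In those fits 16 to 24 related genes were higher and 3 to 9 lower, beside 4.76% to 6.52% and 3.31% to 4.7% of all genes. Relative to the pan-endothelial markers, 0 of the 10 then passed in either direction. Same-numbered mice did not deviate together (correlations of -0.12 to 0.17). A fit with the replicate block called 4 of the 10 genes higher, beside 5.83% of all genes called higher and 4.13% lower. Vwf in that fit had a log2 fold change of 1.55 and an adjusted p of 0.0549, by edgeR. The causes were not tested. At this depth several platelet genes had 0 counts in some mice, and Aplnr, Sele and Selp could not be tested.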
